A study of Ginkgo biloba with 2 samples.

Results

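ABC (ATP-binding cassette) and MATE (multidrug and toxic compound extrusion) transporters were followed in *Ginkgo biloba*. A sequence belonged to the set when the deposited description of its best nr protein match by BLAST, without the species name, contained "ABC transporter", "ATP-binding cassette", "MATE", "TRANSPARENT TESTA 12" or "pleiotropic". Of 64515 reference sequences in the joined tables of both tissues, 146 matched: 130 ABC sequences, 15 MATE sequences and 1 described as protein pleiotropic regulatory locus 1-like (Unigene11884). The last is named after a nuclear WD40-repeat protein of the splicing machinery and not a transporter. It had 370 ovule reads against 272 from leaf and is left out of the counts below, except that of protein names.

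RNA was sequenced from mature ovules and from fully expanded leaves of female trees, both collected in April 2012, with 1 library per tissue. No treatment or genotype is named, and the labels do not give the number of trees. Uniquely mapped reads came to 4581771 for ovule and 4245222 for leaf. There are no replicates, so no test was made, and each difference below compares these 2 libraries. Marker transcripts followed the labels. Photosystem I reaction center sequences had 593 ovule reads and 2759 leaf reads, MCM replication helicases had 2039 and 29, and AINTEGUMENTA sequences, named for a regulator of organ and ovule growth, had 282 and 0.

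ABC proteins hydrolyse ATP to move a wide range of molecules across membranes, and plants carry many more of them than animals do. Subfamilies are lettered. ABCB proteins include auxin exporters, ABCC proteins load conjugates and other organic anions into the vacuole, and ABCG proteins export cuticle lipids, hormones and defence compounds. ABCD proteins sit in the peroxisome membrane, and ABCE and ABCF proteins have no membrane part and act in translation. MATE proteins are driven by ion gradients and not by ATP, and TRANSPARENT TESTA 12 (TT12) of Arabidopsis loads flavonoid precursors of proanthocyanidins into the vacuole of seed coat cells.

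Levels are given as reads and as RPKM, the reads per 1000 bases of sequence and per 1000000 mapped reads. The filter kept sequences whose RPKM was 1 or more in ovule, leaf or both. A sequence was called ovule-higher or leaf-higher when log2 of (RPKM in ovule + 0.5)/(RPKM in leaf + 0.5) reached 1 in size, a scale that understates the difference of weakly expressed sequences. Folds compare reads per 1000000 and carry an exact Clopper-Pearson 95% interval in parentheses, which covers counting error only. Paired values give ovule first and leaf second. Against a library with 0 reads, a fold was computed against 3 reads and is written as "at least". It takes the reads of the other library as exact, so it is not a limit of the 95% interval. Numbers in protein names, such as ABCC9, are those of the best-matching protein in another plant and do not establish which gene of that plant is the counterpart.

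Of the 130 ABC sequences, 112 passed the RPKM filter and 18 did not. Among the 112, 48 (42.9%) were ovule-higher, 38 (33.9%) leaf-higher and 26 under 2-fold, against 27.3% and 35.1% of all 56768 sequences past the filter. Among the 31357 sequences with any BLAST hit, the shares were 30.9% in ovule and 24.4% in leaf. The median log2 ratio of the ABC sequences was 0.36, and that of all sequences was -0.10. With empty libraries set at 3 reads, the medians were 0.26 and 0.00. Where the counting interval also had to exclude 1, 43 ABC sequences were ovule-higher and 26 leaf-higher, and 17.3% and 13.6% of all sequences met that rule. In bulk tissue, fewer cells of a type and less RNA per cell cannot be told apart.

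The reads went the other way from the counts. ABC sequences took 17946 reads in ovule (0.392% of the library) and 23570 in leaf (0.555%), a 1.42-fold excess in leaf (1.39 to 1.45). When RPKM was summed instead, the total was 3748 in ovule and 2935 in leaf, so the direction depended on the scale. Sequences in the ABCC subfamily named C2, C4 and C8 held 44.9% of all leaf ABC reads. The other 127 sequences had 15175 and 12981 reads, a ratio of 1.08 for ovule over leaf (1.06 to 1.11). These 3 were picked as the most-read in leaf, so leaving them out moves the sum toward ovule by choice. The ratio of 1.08 gives no direction: another scaling of the libraries (TMM) moved the ABC fold of ovule over leaf from 0.705 to 0.634.

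**Figure D1:**
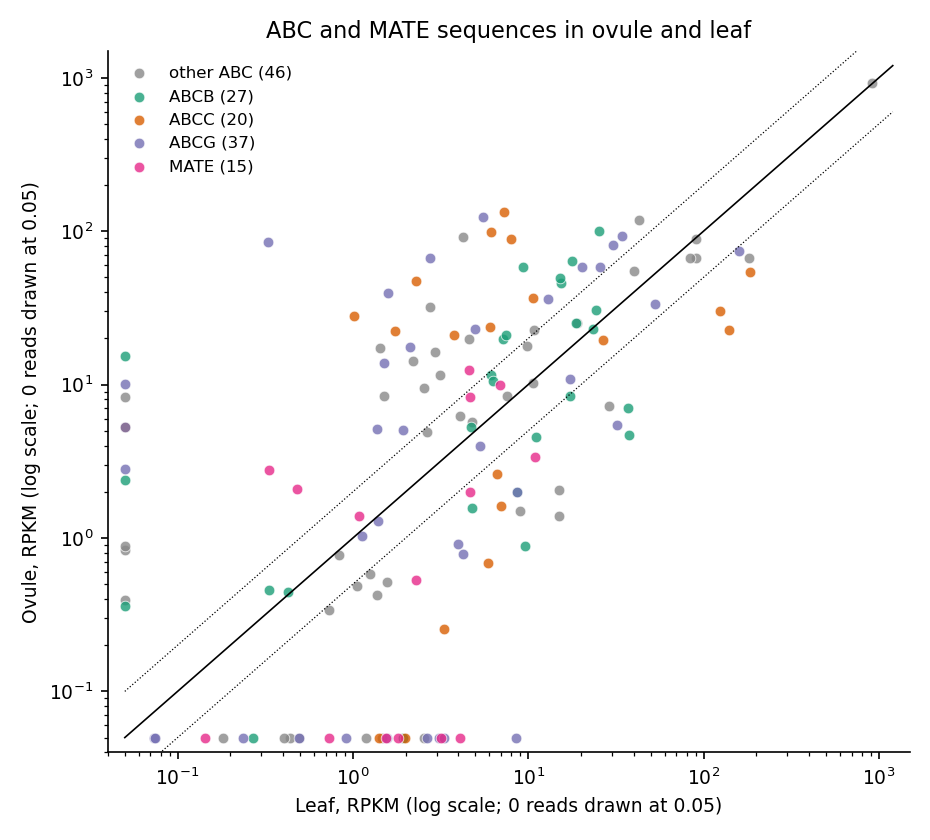
RPKM of each of the 145 transporter sequences in leaf (x axis) and ovule (y axis), both on log scales, with 0 reads drawn at 0.05; colours mark the subfamily and the number of its sequences, the solid line marks equal values and the dotted lines a 2-fold difference. Points spread to both sides of the diagonal, with 1 short multidrug resistance sequence near an RPKM of 928 and 919 and ABCC sequences both far above and far below the line.

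The direction differed with the length of the reference sequence. Of the 51 ABC sequences under 500 bases that passed the filter, 28 were ovule-higher and 14 leaf-higher. Of the 61 with 500 bases or more, 20 were ovule-higher and 24 leaf-higher, and of the 22 with 2000 bases or more, 5 and 12. In percent these were 54.9 in ovule and 27.5 in leaf under 500 bases, 32.8 and 39.3 at 500 or more, and 22.7 and 54.5 at 2000 or more. The 22 longest are part of the 61, and held 12 of the 24 leaf-higher but 5 of the 20 ovule-higher sequences there. The lean to leaf at 500 bases or more thus rested on the longest sequences. All sequences of the same length classes did not show that turn: 27.6% were ovule-higher and 40.5% leaf-higher under 500 bases, 26.9% and 27.1% at 500 or more, and 19.1% and 23.7% at 2000 or more. Assembled sequences carry a ginkgo leaf tag in their identifiers, and the part of the assembly in this pattern was not tested. At 20 or more reads, 36 of 74 ABC sequences (48.6%) were ovule-higher and 19 (25.7%) leaf-higher, against 33.9% and 20.7% of all sequences that deep.

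**Figure D2:**
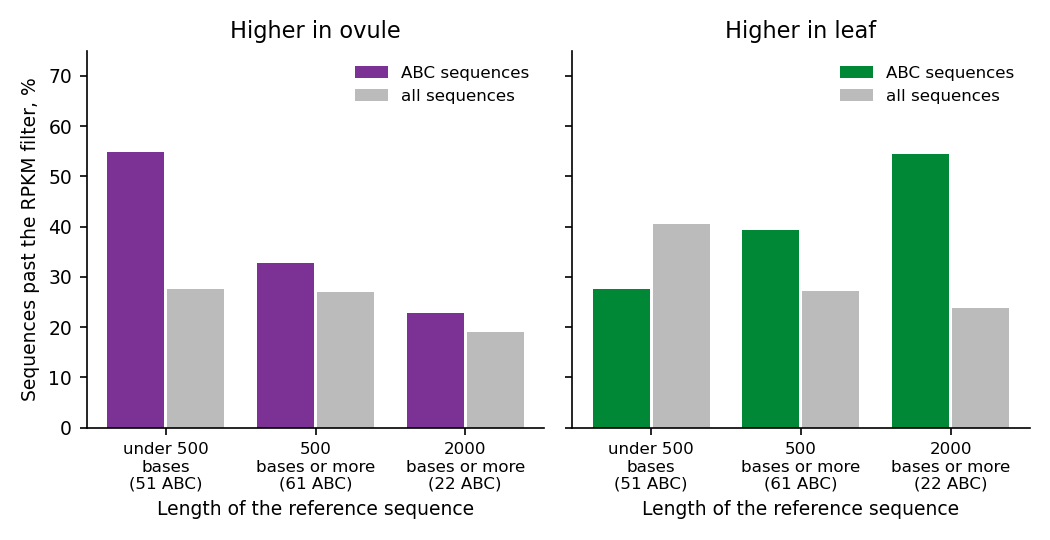
Share of sequences past the RPKM filter (y axis, percent) that were higher in ovule (left) or in leaf (right), for ABC sequences in colour and all sequences in grey, by length of the reference sequence (x axis); the class of 2000 bases or more is part of the class of 500 or more. The ABC share higher in ovule is 54.9% for short sequences and 22.7% for the longest, while the share higher in leaf is 27.5% and 54.5%.

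The 145 transporters and the locus 1-like sequence bore 56 different protein names, 27 of them shared by at least 2 sequences. In 19 of these 27, at least 2 sequences had a counting interval that excluded 1. The sequences so resolved pointed 1 way in 12 names and both ways in 7. The 7 were ABC transporter-like protein, ATP-binding cassette transporter, MDR-like ABC transporter, PDR1, ABCG21, the white-brown-complex name and TT12. Sequences with a shared name can be fragments of 1 gene, so they are not independent.

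The ABCC subfamily, the vacuolar anion pumps, had high values on both sides. All 20 sequences passed the filter, 10 were ovule-higher, 9 leaf-higher and 1 was under 2-fold. Of all sequences past the filter, 27.3% were ovule-higher and 35.1% leaf-higher. Where the interval also had to exclude 1, 9 of the 20 were ovule-higher and 7 leaf-higher. Of all sequences, 17.3% and 13.6% met that rule. ABCC reads were 5231 in ovule against 11242 in leaf, 2.32-fold higher in leaf (2.24 to 2.40), whereas the summed RPKM was 637 and 546. The 3 longest sequences were leaf-higher.

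On the leaf side, an ABCC2-named sequence of 5862 bases (Unigene24030) had 1450 ovule reads and 4574 leaf reads, an RPKM of 54.0 and 184. It was 3.40-fold higher in leaf (3.21 to 3.61) and was the most-read transporter of both libraries. ABCC2 of Arabidopsis carries glutathione conjugates and phytochelatins into the vacuole. The ABCC4-named sequence (Unigene21456) had an RPKM of 30.3 and 124, 4.10-fold higher in leaf (3.79 to 4.44). The ABCC8-named sequence (Unigene19475) stood at 22.6 and 139, 6.14-fold higher (5.59 to 6.75). These 3 sequences were covered over 80.0% of their length or more in each library, so the reads were not confined to a short stretch. Smaller leaf-higher sequences were an ABCC10-named one (CL783.Contig3) with 0 and 13 reads, at least 4.68-fold, and an ABCC13-named one (Unigene12449) with 1 and 12, 13.0-fold (1.92 to 554). Of the other ABCC13-named sequences, Unigene19004 had 1 and 8 reads, and Unigene32745 was ovule-higher at 4 and 0. ABCC3-named sequences had summed read counts of 361 and 473, 1.41-fold higher in leaf (1.23 to 1.63).

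On the ovule side, all 4 sequences named ABCC9 were higher. Unigene17676 had 1386 ovule reads and 70 leaf reads, an RPKM of 134 and 7.30, and was 18.3-fold higher in ovule (14.4 to 23.7). It was the second most-read transporter in ovule. The other three had 208 and 12 reads (Unigene17677), 157 and 7 (Unigene12581) and 85 and 7 (Unigene28004), with folds of 16.1, 20.8 and 11.3. In sum, ABCC9-named reads were 1836 and 96, a 17.7-fold difference (14.4 to 22). Sequences named ABCC5, after the Arabidopsis pump that loads phytate into seed vacuoles, had 257 and 51 reads over 6 sequences, 4.67-fold higher in ovule (3.45 to 6.44). Of these 6, 5 were higher in ovule, from 3.43-fold (Unigene50373, 37 and 10 reads) to 27.8-fold (Unigene36966, 30 and 1 reads; 4.62 to 1134). The sixth (Unigene10696) had 2 and 8 reads, with an interval that included 1 (0.862 to 41.7, higher in leaf).

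The ABCB subfamily, which includes auxin carriers, was split. Of 27 sequences, 23 passed the filter. Among the 23, 9 (39.1%) were ovule-higher, 8 (34.8%) leaf-higher and 6 under 2-fold, against 27.3% and 35.1% of all sequences past the filter. Summed reads were 2954 and 2854, a 1.04-fold excess in leaf whose interval included 1 (0.990 to 1.10), while summed RPKM was 512 in ovule and 310 in leaf. Without the most-read sequence, the sum was 1.31-fold higher in ovule (1.23 to 1.39).

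Within ABCB, sequences with a shared name mostly lay on 1 side. ABCB15-named sequences had 280 ovule reads and 979 leaf reads, and all 5 were higher in leaf, from 2.07-fold (CL1045.Contig1) to 10.8-fold (Unigene27288, 1 and 10 reads; 1.54 to 468). The longest (CL238.Contig1, 4229 bases) had an RPKM of 7.02 and 37.0, 5.27-fold higher in leaf (4.38 to 6.38). ABCB1 and ABCB19 of Arabidopsis export auxin. ABCB1-named sequences went to ovule, at 429 and 143 reads (CL6700.Contig1) and at 51 and 17 (Unigene28550), each 2.78-fold. An ABCB19-named sequence from GenBank had 50 ovule reads against 0 from leaf, a difference of at least 15.4-fold, and the reads covered 23.8% of it. ABCB20-named sequences had 5 members, all under 2-fold, with 521 and 363 reads in sum, 1.33-fold higher in ovule (1.16 to 1.52).

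Mitochondrial and TAP-type ABCB sequences also differed. ABCB25 of Arabidopsis is a mitochondrial exporter needed for iron-sulfur proteins of the cytosol. Sequences with that name had read counts of 620 and 205, 2.80-fold higher in ovule (2.39 to 3.30), and the longer one (Unigene25182) stood at an RPKM of 46.0 and 15.4. An ABCB6-named TAP-type sequence (Unigene18262) had read counts of 39 and 88, 2.44-fold higher in leaf (1.65 to 3.65).

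MDR-like sequences, matched to a protein of yew or of ginkgo itself, were split inside an assembly cluster, a set of contigs with 1 cluster number in their identifiers. In cluster CL3455, the longest contig (CL3455.Contig1, 5292 bases) stood at 4.66 RPKM in ovule and 37.4 RPKM in leaf, 8.03-fold higher in leaf (6.59 to 9.86). The other 3 contigs of the set pointed to ovule. CL3455.Contig5 stood at 63.8 and 17.8, 3.59-fold (2.94 to 4.41), CL3455.Contig2 at 49.4 and 15.2, 3.24-fold (2.0 to 5.47), and CL3455.Contig4, named ABCB11, at 99.7 and 25.3, 3.94-fold (2.40 to 6.77). Reads were counted where they mapped uniquely, so the split of reads between similar contigs is uncertain. Unigene9464 stood at 58.0 and 9.34, 6.21-fold higher in ovule (4.13 to 9.68). An MDR-like GenBank sequence whose best match is the ginkgo protein had 9 and 6 reads over 4275 bases, below the filter in both tissues, and an assembled contig with the same match (CL3078.Contig1) had 9 and 8. The limit of unique mapping applies to this pair too, and reads that fit both would be missing. Another GenBank sequence, matched to yew, had 9 ovule reads against 0, a difference of at least 2.78-fold.

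ABCG was the largest subfamily and leaned to ovule. Of 37 sequences, 32 passed the filter. Among the 32, 17 (53.1%) were ovule-higher, 10 (31.2%) leaf-higher and 5 under 2-fold, against 27.3% and 35.1% of all sequences past the filter. The leaf share was thus near that of all sequences. Where the interval also had to exclude 1, 14 were ovule-higher and 5 leaf-higher. Reads of all 37 summed to 3062 and 1509, 1.88-fold higher in ovule (1.77 to 2.0), and the summed RPKM was 859 and 453. The median log2 ratio was 1.18, and 0.28 with empty libraries at 3 reads, since 10 of the 37 had no ovule reads and 3 no leaf reads. Of the 37, 18 had under 20 reads over both libraries.

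The most-read sequences named after cuticle transporters were higher in ovule. In Arabidopsis, ABCG11 exports wax and cutin lipids and ABCG32 is needed to form the cutin layer. The main ABCG11-named sequence (Unigene379) had 619 ovule reads and 252 leaf reads, an RPKM of 58.5 and 25.7, 2.28-fold higher in ovule (1.96 to 2.65). A pair of others with this name had 0 and 4 reads (Unigene23452) and 0 and 2 (Unigene38719). ABCG32-named sequences stood at an RPKM of 36.0 and 12.9 (Unigene17129) and of 58.7 and 20.3 (Unigene17130), 2.82-fold higher in ovule in sum (2.46 to 3.24). Unigene17131, named after PDR1, had 93 and 32 reads and a fold of 2.69, close to the 2.78 and 2.88 of the ABCG32-named pair. ABCG3-named sequences were all higher in ovule, 6 of 6, with 280 and 53 reads in sum, 4.89-fold (3.64 to 6.70). Unigene32789 had 19 ovule reads against 0 from leaf, at least 5.87-fold.

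The largest ratio of the whole set belonged to a white-brown-complex ABC transporter from GenBank (716 bases). It had 280 ovule reads and 1 leaf read, an RPKM of 85.4 and 0.329, and was 259-fold higher in ovule (46.2 to 10283). The ovule reads covered 97.1% of it. The other sequence with that name (Unigene28433) had read counts of 4 and 16, 4.32-fold higher in leaf (1.39 to 17.7).

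Pleiotropic drug resistance (PDR) proteins are large ABCG pumps, and in tobacco relatives PDR1 exports antimicrobial terpenoids. The 12 PDR-named sequences were mixed. Of the 11 past the filter, 5 (45.5%) were ovule-higher, 3 (27.3%) leaf-higher and 3 under 2-fold, against 27.3% and 35.1% in the whole data. Their summed reads were 1027 and 874, with an interval that included 1 (0.994 to 1.19). Without the most-read sequence (Unigene24291) they were 899 and 622, 1.34-fold higher in ovule (1.21 to 1.49). Single sequences differed far more. Toward ovule, Unigene25607 stood at an RPKM of 124 and 5.51, Unigene31176 at 66.5 and 2.76, and CL2399.Contig2 at 39.5 and 1.58, with folds of 22.5, 24.1 and 25. Toward leaf, Unigene18554 (1998 bases) stood at 5.46 and 32.1, 5.87-fold (4.33 to 8.11), and Unigene24291 at 74.7 and 159, 2.12-fold (1.71 to 2.65). A PDR12-named sequence (CL4426.Contig1) had 0 ovule and 37 leaf reads, at least 13.3-fold higher in leaf. PDR12 of Arabidopsis takes up abscisic acid. A PDR2-named sequence (CL2146.Contig1) had read counts of 126 and 44, 2.65-fold higher in ovule (1.87 to 3.83).

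Several ABCG names had very few counted reads. ABCG28-named contigs had 0 ovule and 4 leaf reads over 3 sequences, and none passed the filter. These 3 share 1 assembly cluster and 1 best match, and only uniquely mapped reads were counted. Reads that fit more than 1 of them would be missing, so the low count does not show low expression. ABCG25 and ABCG36, an abscisic acid exporter and a defence pump in Arabidopsis, were represented by sequences with 0 and 1 reads (Unigene44339) and 0 and 2 (Unigene31830). At these counts a difference was not detectable. ABCG21-named sequences pointed both ways, with Unigene31276 at 2 and 10 reads, 5.40-fold higher in leaf (1.15 to 50.7), and Unigene39729 at 10 and 1, 9.27-fold higher in ovule (1.32 to 402).

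The small subfamilies had few sequences each. An ABCD4-named sequence (CL1958.Contig2) had read counts of 5 and 14, 3.02-fold higher in leaf (1.03 to 10.7), with 5.02% of its bases covered in leaf. The ABCE2-named sequence (CL838.Contig2), of a family that recycles ribosomes, had 12 and 2 reads on 160 bases, 5.56-fold higher in ovule (1.24 to 51.1).

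ABCF proteins, relatives of the yeast translation factor GCN20, included both level and leaf-higher sequences. The ABCF3-named sequence (Unigene24331) stood at 88.5 RPKM in ovule and 90.0 RPKM in leaf, a ratio of 1.02 (0.936 to 1.10). ABCF4 (Unigene13756) stood at 2.06 and 14.9, 7.21-fold higher in leaf (4.43 to 12.4). ABCF5 (CL1069.Contig1) had read counts of 19 and 105, 5.96-fold higher in leaf (3.64 to 10.3), but the leaf reads covered 4.83% of its 2755 bases, so they rest on a short stretch.

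ABCI and ABCA held 4 and 3 sequences. An ABCI15-named sequence (Unigene24043) stood at 67.0 RPKM in ovule and 182 RPKM in leaf, 2.71-fold higher in leaf (2.50 to 2.95). ABCI19 (Unigene24897) had read counts of 148 and 65, 2.11-fold higher in ovule (1.57 to 2.87), and the main ABCI10 sequence (Unigene19113), named as chloroplastic, had 385 and 263, 1.36-fold higher in ovule (1.16 to 1.59). None of the 3 ABCA sequences reached 2-fold. The longest (CL1002.Contig4, named ABCA2) stood at 25.1 and 19.0, 1.32-fold higher in ovule (1.13 to 1.54). An ABCA7-named one (Unigene25834) had 33 and 32 reads, and a GenBank sequence named ABCA2 had 2 and 4.

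The other 29 ABC sequences carried no subfamily letter in their description. Of the 21 past the filter, 7 (33.3%) were ovule-higher, 7 (33.3%) leaf-higher and 7 under 2-fold, against 27.3% and 35.1% in the whole data. The most abundant of all ABC sequences per length was among them, a multidrug resistance protein of 323 bases (Unigene6450) at 928 RPKM in ovule and 919 RPKM in leaf, with 1374 and 1260 reads and a ratio of 1.01 (0.935 to 1.09). CL2399.Contig6 (4187 bases) was also close to level, at 67.0 and 83.4. Others were not: Unigene22018 stood at 1.39 and 15.0, 10.8-fold higher in leaf (7.25 to 16.7), and Unigene25650 at 91.5 and 4.23, 21.6-fold higher in ovule (11.2 to 47.9). Unigene127, described as a cholesterol/phospholipid flippase, stood at 7.27 and 29.0, 3.99-fold higher in leaf (3.36 to 4.75). For Unigene6978, with 169 and 57 reads, the reads covered 22.4% of 312 bases in ovule and 19.2% in leaf, so they lay on a short stretch. Smaller ovule-higher sequences were Unigene28489, with 38 and 3 reads, and CL47.Contig4, with 8 and 0, while Unigene24369 was under 2-fold at 67.0 and 90.2 RPKM.

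**Figure D3:**
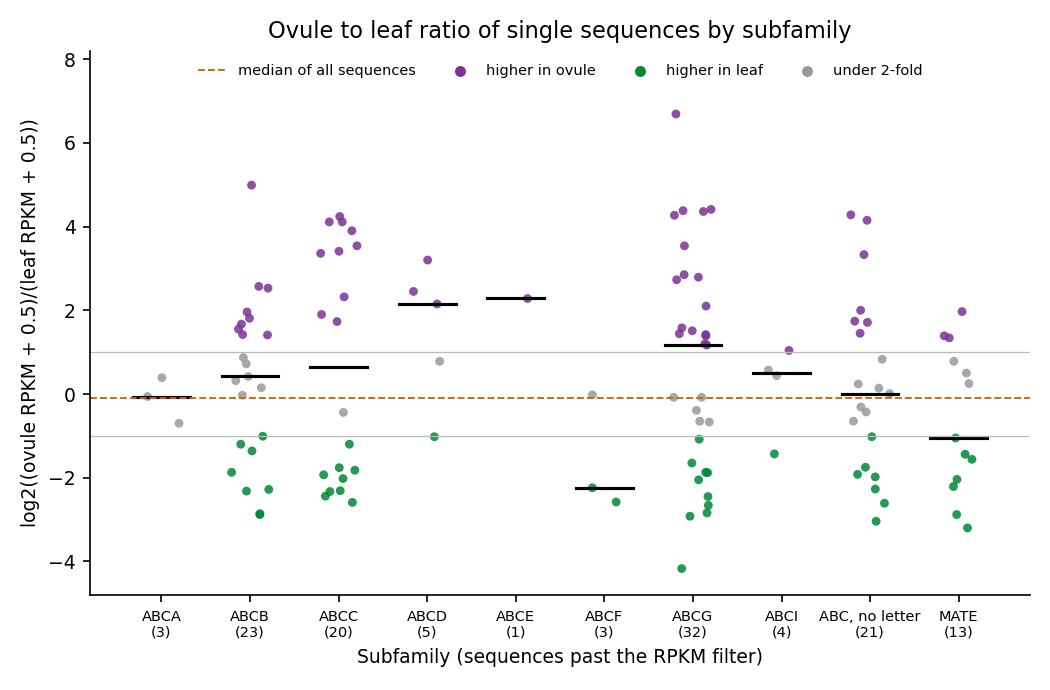
Log2 ratio of ovule over leaf RPKM, each with 0.5 added (y axis), for single sequences past the filter, by subfamily (x axis, with the number of sequences); black bars are medians, the dashed line is the median of all sequences (-0.10) and the grey lines mark a log2 ratio of 1 and -1. ABCB, ABCC and ABCG hold sequences on both sides, with medians of 0.42, 0.65 and 1.18, and the MATE median is -1.05.

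MATE sequences that the descriptions named were few and shallow. Their reads summed to 211 in ovule and 138 in leaf over 15 sequences, and 11 of the 15 had under 20 reads over both libraries. Of 13 past the filter, 3 (23.1%) were ovule-higher and 7 (53.8%) leaf-higher, against 27.3% and 35.1% of all sequences. With an interval that excluded 1, the MATE counts were 3 and 2 of 13, and 17.3% and 13.6% of all sequences met that rule. The median log2 ratio was -1.05, and 0.00 with empty libraries at 3 reads, since 6 sequences had no ovule reads. Summed reads were 1.42-fold higher in ovule (1.14 to 1.77), but without the most-read sequence they were 92 and 97, with an interval that included 1, and the summed RPKM was 42.8 and 47.5. The set therefore gave no direction that held across these scales. It also leaves out sequences with other descriptions. By the deposited ontology term for drug transmembrane transporter activity, 34 further sequences had 1983 and 2878 reads. Without the most-read of the 34, these were 1848 and 1759. Whether the 34 are MATE proteins was not tested.

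Single MATE sequences were clearer. The most-read one, named MATE efflux family protein 1 (CL2782.Contig2, 2096 bases), had 119 and 41 reads, an RPKM of 12.4 and 4.61, 2.69-fold higher in ovule (1.87 to 3.93). Of the same name, CL2782.Contig3 had 11 and 8 reads and Unigene23471 had 14 and 9, with intervals that included 1. MATE efflux family protein 3, named as chloroplastic, had 43 and 18 reads over Unigene61 and Unigene13242, 2.21-fold higher in ovule (1.25 to 4.08). An ALF5-named sequence (Unigene10015), after an Arabidopsis protein that protects roots from toxins, had 6 and 13 reads, with an interval that included 1 (0.829 to 7.50). Unigene5969 had 0 and 7 reads, at least 2.52-fold higher in leaf.

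The TT12-named sequences, after the proanthocyanidin precursor transporter, had 18 ovule reads and 36 leaf reads over 6 sequences, 2.16-fold higher in leaf (1.19 to 4.04). Most leaf reads lay on Unigene17038, with 8 and 24 reads, 3.24-fold higher in leaf (1.41 to 8.34). Without it the counts were 10 and 12, 1.30-fold higher in leaf with an interval that included 1 (0.513 to 3.35). The direction was then no longer resolved. A GenBank sequence had read counts of 9 and 1, 8.34-fold higher in ovule (1.16 to 366). The remaining 4 passed as leaf-higher on at most 4 reads in either library, and none had an interval that excluded 1. These counts cover TT12-named sequences alone. CL2317.Contig2, a hypothetical protein in the assembly cluster of 1 of them, had 135 and 1119 reads. Proanthocyanidin enzymes were mostly higher in ovule. Of 19 sequences of anthocyanidin synthase, anthocyanidin reductase, leucoanthocyanidin reductase and dihydroflavonol reductase past the filter, 13 were ovule-higher and 1 leaf-higher. These are 68.4% and 5.26%, against 27.3% and 35.1% of all sequences past the filter. With the 3 below the filter, the 22 had 4211 and 309 reads, 12.6-fold (11.2 to 14.2). An anthocyanidin reductase (Unigene15457) stood at 719 and 37.9 RPKM, and the next most-read, an anthocyanidin synthase from GenBank, at 80.0 and 0.282.

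**Figure D4:**
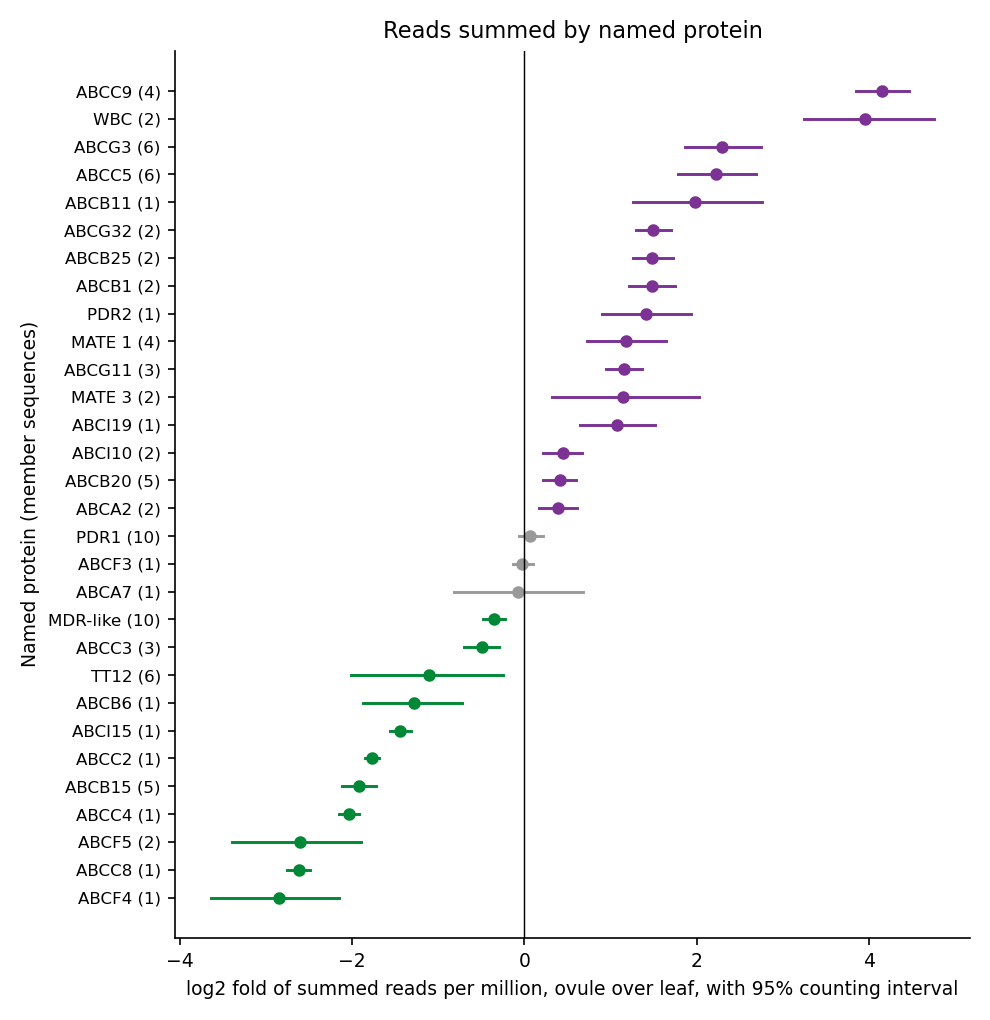
Log2 fold of summed reads per 1000000, ovule over leaf (x axis), by protein name (y axis, with the number of sequences). Names drawn have at least 50 reads over both libraries and reads in each. The ABCD subfamily and ABC names without a subfamily letter, such as ATP-binding cassette transporter, are not drawn. Points are folds and lines the 95% counting interval, with purple for intervals above 0, green for intervals below 0 and grey for intervals that include 0. ABCC9 lies farthest to ovule (17.7-fold), ABCF4 farthest to leaf (7.21-fold), and PDR1, ABCF3 and ABCA7 include 0.

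Other genes that work with these transporters were followed as lists, here and in the next paragraph. For comparison, 27.3% of all sequences past the filter were ovule-higher and 35.1% leaf-higher. Vacuolar proton pumps set up the gradient that MATE antiporters use. The list took vacuolar and pyrophosphate-energized pumps by name. Of 8 past the filter, 2 were ovule-higher, 1 leaf-higher and 5 under 2-fold, with a median log2 ratio of -0.30. An ovule-higher one, CL7658.Contig2 (20 and 4 reads), is named pyrophosphate-energized membrane proton pump 3, without mention of the vacuole. The reads of all 11 were 1.24-fold higher in leaf (1.16 to 1.33). The most-read were a pyrophosphate-energized pump from GenBank at an RPKM of 325 and 394 and a proton ATPase c subunit (Unigene24041) at 132 and 181. Some glutathione transferases make conjugates that ABCC pumps carry. The list took every class by name, and which of its sequences make such conjugates was not tested. Of 35 past the filter, 12 were ovule-higher, 11 leaf-higher and 12 under 2-fold, and the reads of all 39 were 1.67-fold higher in leaf (1.61 to 1.74). The zeta class Unigene6476 stood at 92.8 and 336, and the next most-read, a DHAR3-named sequence (Unigene6423), at 96.7 and 193.

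Auxin carriers of other families were set beside the ABCB proteins. Of 10 PIN and AUX1/LAX-type sequences, 5 were ovule-higher, 1 leaf-higher and 4 under 2-fold, and their reads were 1004 and 247, 3.77-fold higher in ovule (3.27 to 4.35). An auxin transporter-like protein 1 (Unigene22318) stood at an RPKM of 47.4 and 9.71, and an auxin efflux carrier-like protein (Unigene28854) at 44.2 and 3.71. Among the ABC sequences, 14 carried the deposited gene ontology term for auxin efflux transmembrane transporter activity. Of 10 past the filter, 2 were ovule-higher and 4 leaf-higher. All 14 together had read counts of 1317 and 1475, 1.21-fold higher in leaf (1.12 to 1.30). Without the most-read, the ABCB15-named CL238.Contig1, these were 1181 and 811, 1.35-fold higher in ovule (1.23 to 1.48), so 1 sequence set the direction.

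Deposited ontology terms, which the choice of members did not use, marked parts of the transporter set described above. Of 11 transporter sequences annotated to the plant-type vacuole, 6 (54.5%) were ovule-higher and 4 (36.4%) leaf-higher. Of all sequences past the filter, 27.3% and 35.1% were so called. The reads of these 11 were 2547 and 6688, 2.83-fold higher in leaf (2.71 to 2.97). Without the most-read, the ABCC4-named Unigene21456, the excess in leaf was 2.26-fold (2.14 to 2.40). The summed RPKM of the 11 was 313 and 343.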

How the data were processed

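The deposited tables give, per the file headers, a count of uniquely mapped reads for every reference sequence of a library, with its length, the percent of bases covered, an RPKM value, gene ontology terms and a best BLAST nr match. Per the labels' protocols, a modified CTAB method gave the RNA and libraries were standard Illumina ones. Which assembler, aligner and BLAST cut-off were used is not given in the sources used here. Checked on the tables, the deposited counts summed to the header totals, and the deposited RPKM matched the value computed from reads, length and total within a relative tolerance of 1e-06, so a sequence absent from 1 table had 0 reads. With 1 library per tissue, no model was fitted and no p-value computed. Folds and intervals came from Python 3.11.15 and scipy 1.17.1, and TMM factors (an alternative scaling) from edgeR 4.0.16. The interval and call were tested on simulated data. Subfamily letters came from the descriptions, with PDR and white-brown names counted as ABCG and MDR names as ABCB. Named sequences were, per subfamily, the 3 of highest mean RPKM, plus the 3 largest ratios each way whose interval excluded 1, and the 5 most-read ABC and MATE sequences per library. Others were named after their values were seen, mostly to show every sequence behind a protein name. The members, lists and rule were chosen with earlier results of these data known. Alternatives were other pseudocounts, filters, scalings and subsets of sequences. Results for 1 protein name are not reported here.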

Additional observations from a re-analysis of the deposited data

How the results depend on the processing

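The ABC counts of 48 sequences higher in ovule and 38 in leaf stayed within 1.5 times under pseudocounts of 0.1 and 1, no filter, TMM scaling, assembled sequences alone and a counting interval that excludes 1. The leaf count became 21 at an RPKM of at least 5 and 19 at 20 or more reads, where fewer sequences qualify. Among sequences of 500 bases or more, the counts were 20 and 24. For MATE, 3 and 7 became 1 and 1 at an RPKM of at least 5 and at 20 or more reads, the leaf count became 2 with an interval that excludes 1, and it was 3 at 500 bases or more. The ABC median of 0.36 was below 0 at 500 bases or more (-0.06), at 2000 bases or more (-1.01) and for sequences under 20 reads (-0.86), and the MATE median of -1.05 became 0.64 at 20 or more reads or an RPKM of at least 5 and 0.51 at 500 bases or more. TMM scaling moved the median of all sequences from -0.10 to -0.24, so ratios near 1 carry no direction. As ovule over leaf, the ABC fold of summed reads was 0.705. It was 0.805 without the most-read member, 0.692 for assembled sequences, 0.634 with TMM scaling, 0.676 without sequences of no letter and 0.635 at 500 bases or more. It turned to 1.28 with RPKM summed and lay near 1, at 1.08, without the 3 most-read leaf members, which were picked by their leaf reads. The MATE fold of 1.42 turned to 0.879 without the most-read member and to 0.902 with RPKM summed. The settings of no letter, 500 bases, summed RPKM and the 3 leaf members were chosen after seeing the data. The causes were not tested. No paired analysis was possible because each tissue has 1 library, and no replicate could be left out. Sequences with under 20 reads, 56 of 130 ABC and 11 of 15 MATE, limit what can be said of single genes.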

Other observations

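Contigs of the same assembly clusters lay outside the descriptions that defined the set. The 44 assembled members in clusters belonged to 27 clusters, and 13 of these held 23 further contigs with descriptions such as hypothetical or unknown protein. In the cluster of a TT12-named contig with 0 and 1 reads, CL2317.Contig2 (2054 bases) had 135 ovule reads and 1119 leaf reads, an RPKM of 14.3 and 128, 8.95-fold higher in leaf. It alone had more reads than the 15 MATE sequences together. In the cluster of the PDR2-named contig that was 2.65-fold higher in ovule, CL2146.Contig2 (2621 bases) had read counts of 86 and 464, 5.82-fold higher in leaf. In cluster CL2399, 4 further contigs of 220 to 309 bases were 7.62 to 16.4-fold higher in ovule, next to CL2399.Contig2 at 25-fold and the long CL2399.Contig6 at 1.25-fold higher in leaf. CL838.Contig3, in the cluster of the ABCE2-named fragment with 12 and 2 reads, had read counts of 464 and 342, 1.26-fold higher in ovule. How reads divide among contigs of a cluster was not tested.

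Names and ontology terms outside the set added more. Of 7 sequences with other names of these families, 4 (57.1%) were ovule-higher and 2 (28.6%) leaf-higher. Of all sequences past the filter, 27.3% and 35.1% were so called. The 7 had 1145 and 373 reads. A multidrug resistance-associated protein (Unigene6081) stood at 40.5 RPKM in ovule and 8.21 RPKM in leaf, 4.94-fold higher in ovule (3.82 to 6.47), and a multidrug resistance pump (Unigene993) 56.3 and 3.55, 15.8-fold (9.99 to 26.7). Deposited ontology terms for ATPases that move substances or xenobiotics across membranes marked 54 further sequences. These had read counts of 3679 and 2224, 1.53-fold higher in ovule (1.45 to 1.62). The summed reads of the ABC set were higher in leaf, but the terms do not name the ABC family. Whether the 54 are ABC proteins was not tested. By the term for drug transmembrane transporter activity, 34 further sequences had read counts of 1983 and 2878. They were 1.57-fold higher in leaf (1.48 to 1.66), or 1.03-fold without CL2317.Contig2. Whether the 34 are MATE proteins was not tested.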
